A study of Mus musculus with 29 samples.

Results

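The Hox gene clusters were followed window by window in the lung methylome. Members were the windows of the deposited percent methylation table whose gene name begins with Hox, a cluster letter (a, b, c or d) and a number, or equals Gm28308 (ENSMUSG00000101298), a transcript unit of HoxA whose windows take in Hoxa3, Hoxa4, Hoxa5 and Hoxa6. The rule used names and no measured value, though it was chosen with earlier results of these data known. It found 188 of the 260686 windows in the table. HoxA on chromosome 6 had 57 windows, HoxB on chromosome 11 had 46, HoxC on chromosome 15 had 43 and HoxD on chromosome 2 had 42. Each of the 188 windows had a value in every library, so none was lost to the filter on missing values.

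Lung DNA of female BALB/c offspring aged 13 weeks was read by whole-genome enzymatic methyl-sequencing, where an enzymatic conversion of unmethylated cytosine makes methylated cytosine visible. Saline (Sham) or fine particulate matter (PM) was delivered into the nose of the dams from before mating until weaning. Offspring were sensitised to and challenged with ovalbumin (OVA), an egg protein that induces allergic airway disease (AAD), or were given buffered saline. There were 7 libraries each of Sham, Sham-OVA and PM offspring and 8 of PM-OVA offspring, of an unaltered inbred strain with no transgene or deletion named. Each library is labelled as its own sample, and no label gives its dam or litter, so p-values measure the spread between these samples and mice of 1 litter cannot be told apart from unrelated mice.

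Hox genes encode homeodomain transcription factors that give cells their position along the head-to-tail axis of the embryo. They lie in clusters in the order in which they act, with anterior genes (paralogue group 1) at one end and posterior genes at the other, and adult cells keep part of this pattern as a positional record. CpG-dense stretches of the clusters are usually held by Polycomb repressors or by active chromatin and carry little DNA methylation, and methylation of Hox genes differs between cell lineages. In the lung, Hoxa5 and Hoxb5 act in airway development, and in blood Hoxa9, Hoxb3 and Hoxb4 act in progenitor cells.

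Stretches of the reference genome (GRCm38, forward strand, 5′ to 3′) show the sequence of the windows on which the results turn, with each CpG in capitals. Each is the 200-base stretch with most CpGs, free of annotated untranslated sequence, in its window. The first is from the window with the largest rise after OVA challenge, at Hoxa5 (chr6:52202600-52202799, 10 CpGs). The second is from the most CpG-dense HoxA window that rose by at least 10 points, in an intron of Hoxa3 (chr6:52175751-52175950, 29 CpGs). The third is from the start of Hoxa4, the least methylated HoxA window (chr6:52191798-52191997, 37 CpGs). The last is from the window with the largest fall, at Hoxa9 (chr6:52222812-52223011, 10 CpGs).
Hoxa5 window: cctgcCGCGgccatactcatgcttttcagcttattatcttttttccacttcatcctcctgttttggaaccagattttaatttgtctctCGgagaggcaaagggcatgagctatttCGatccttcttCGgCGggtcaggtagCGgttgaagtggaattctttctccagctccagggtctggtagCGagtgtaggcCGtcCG
Hoxa3 intron window: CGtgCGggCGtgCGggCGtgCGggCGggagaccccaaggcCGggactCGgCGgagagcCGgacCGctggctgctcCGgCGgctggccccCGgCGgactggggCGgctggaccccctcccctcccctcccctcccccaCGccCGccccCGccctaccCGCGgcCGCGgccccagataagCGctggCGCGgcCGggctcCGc
Hoxa4 start window: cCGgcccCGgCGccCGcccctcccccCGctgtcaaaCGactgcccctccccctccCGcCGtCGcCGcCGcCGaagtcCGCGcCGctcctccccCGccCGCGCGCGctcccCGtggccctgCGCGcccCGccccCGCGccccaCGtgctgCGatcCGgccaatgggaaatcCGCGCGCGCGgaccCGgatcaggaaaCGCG
Hoxa9 window: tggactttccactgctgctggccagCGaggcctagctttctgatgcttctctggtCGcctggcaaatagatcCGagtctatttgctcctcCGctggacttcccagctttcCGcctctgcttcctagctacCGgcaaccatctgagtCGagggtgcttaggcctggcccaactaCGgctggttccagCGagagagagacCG

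The 250 bases upstream of the RefSeq start of Hoxa5 (GRCm38.p6, chr6:52204588-52204837, reverse strand, which is the coding strand of the gene) are shown because they lie across neighbouring windows that both rose. They hold 28 CpGs, again in capitals.
Hoxa5 upstream: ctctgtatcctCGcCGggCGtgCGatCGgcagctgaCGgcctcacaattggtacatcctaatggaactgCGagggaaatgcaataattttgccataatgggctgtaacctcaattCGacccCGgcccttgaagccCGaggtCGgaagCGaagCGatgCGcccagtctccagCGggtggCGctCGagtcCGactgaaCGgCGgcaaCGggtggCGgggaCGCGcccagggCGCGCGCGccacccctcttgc

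The window with the largest rise in Sham offspring in each of the other clusters is shown in the same way as the HoxA windows. That of HoxB lies in an intron of Hoxb3 (chr11:96332781-96332980, 23 CpGs), that of HoxC within transcripts of Hoxc5 and Hoxc6 (chr15:103000640-103000839, 14 CpGs) and that of HoxD at Hoxd3 and Hoxd4 (chr2:74725244-74725443, 9 CpGs).
Hoxb3 intron window: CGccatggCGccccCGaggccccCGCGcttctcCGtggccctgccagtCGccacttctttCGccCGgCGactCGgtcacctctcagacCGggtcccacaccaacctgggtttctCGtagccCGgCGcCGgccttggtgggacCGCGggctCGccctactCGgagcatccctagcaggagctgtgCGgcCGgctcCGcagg
Hoxc5 and Hoxc6 window: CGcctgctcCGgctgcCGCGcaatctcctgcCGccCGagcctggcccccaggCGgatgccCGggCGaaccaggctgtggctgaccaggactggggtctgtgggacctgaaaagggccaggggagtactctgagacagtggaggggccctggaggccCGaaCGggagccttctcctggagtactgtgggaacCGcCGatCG
Hoxd3 and Hoxd4 window: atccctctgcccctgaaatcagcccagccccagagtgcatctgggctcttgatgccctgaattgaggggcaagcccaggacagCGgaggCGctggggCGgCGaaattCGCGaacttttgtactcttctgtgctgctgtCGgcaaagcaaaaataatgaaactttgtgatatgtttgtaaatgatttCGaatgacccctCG

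Read depth is unknown here, since the table holds percentages without counts or coverage, and no counting error can be given. Sham replicate 1 stood apart from the other 28 libraries. It had a value in 1224 of 1230 windows of the Y chromosome, against 29 to 46 in the others, although the mice are described as female. It was kept in its group. With it, 27 Hox windows were higher and 3 lower after OVA challenge in Sham offspring by the criteria given with that comparison, and without it 27 and 2.

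In unchallenged Sham lungs the Hox windows were far less methylated than most genic windows. The median of the 188 window means was 7.66%, against 76.9% over the 259167 windows tested. Of the Hox windows, 140 were below 20% methylation, 47 lay between 20% and 60% and 1 lay above 60%, whereas 81.0% of all windows tested lay above 60%. The mean over windows was 22.2% ± 0.574 (SD, n = 7) in HoxB, 16.2% ± 0.928 (SD, n = 7) in HoxA, 9.27% ± 0.501 (SD, n = 7) in HoxD and 8.25% ± 0.787 (SD, n = 7) in HoxC. The library ranges of HoxD (8.86% to 10.3%) and HoxC (7.40% to 9.75%) overlapped, whereas HoxB (21.4% to 23.2%) and HoxA (15.02% to 17.7%) stood clear of each other and of both.

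The lowest window of each cluster was CpG-dense and nearly free of methylation. In Sham (n = 7, SD) these were the start window of Hoxa4 (0.107% ± 0.284), a coding window of Hoxb4 at chr11:96318726-96319222 (0.267% ± 0.260), an untranslated exon window of Hoxd8 at chr2:74705088-74705409 (0.384% ± 0.258) and a coding window of Hoxc9 at chr15:102981495-102982033 (1.43% ± 0.599). None of them passed the test after OVA challenge in either kind of offspring. The highest windows of HoxB, HoxD and HoxC were long and CpG-poor. They were a Hoxb1 window at chr11:96367020-96371683 (65.1% ± 4.12), a window within transcripts of Hoxd3 and Hoxd4 at chr2:74715773-74721248 (41.4% ± 1.60) and a Hoxc4 window at chr15:103036815-103041269 (32.6% ± 2.91).

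**Figure D1:**
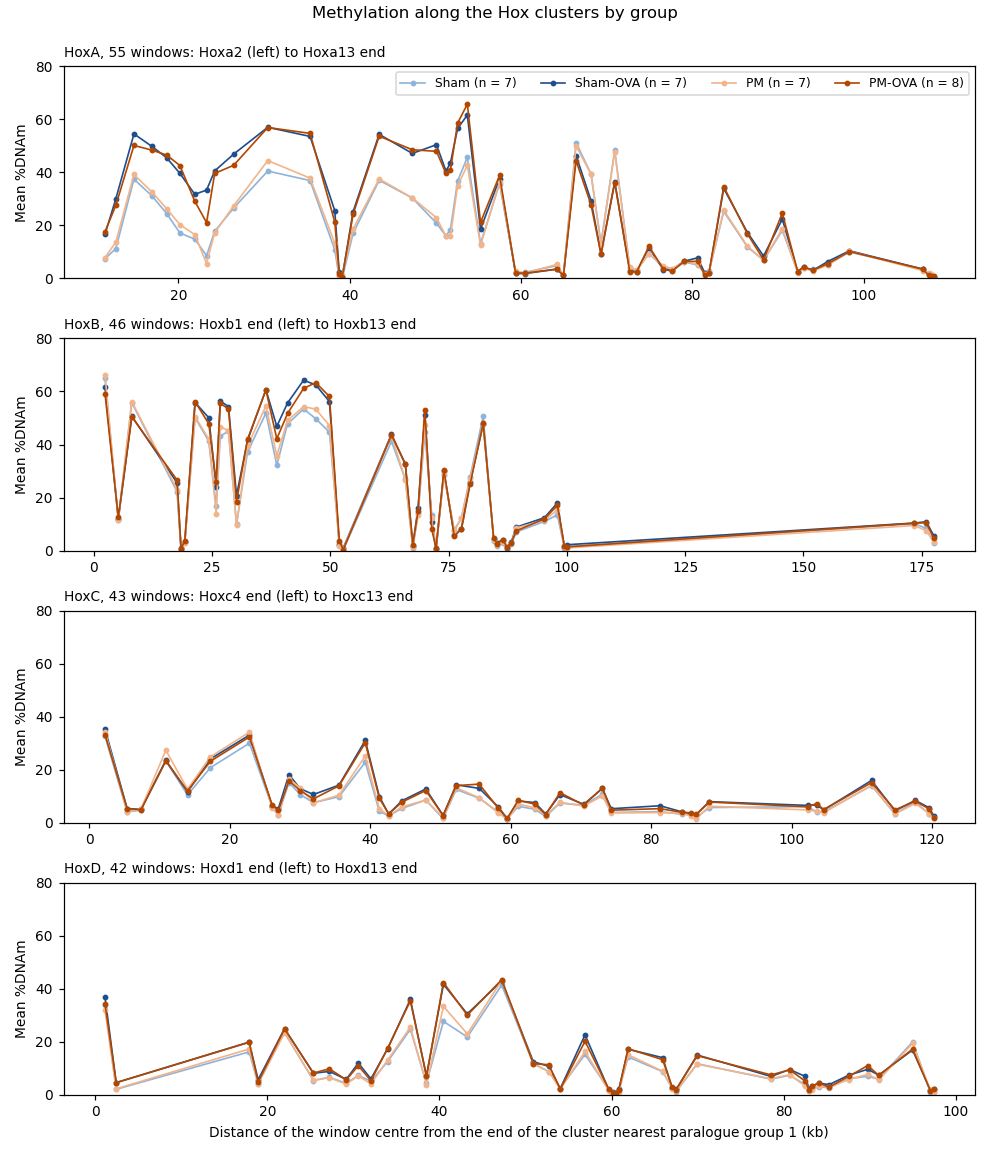
Mean %DNAm of the Hox windows reported here (vertical axis) against the distance of their centres from the cluster end nearest paralogue group 1 (horizontal axis, kb), with a line for each of the groups Sham, Sham-OVA, PM and PM-OVA. In HoxA the OVA-challenged lines lie above the unchallenged lines over Hoxa2 to Hoxa6, except at the Hoxa4 start window, where all 4 lines are near 0.

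CpG density and methylation went opposite ways along the clusters. Over the 188 windows Spearman's rho between CpGs per 100 bp and the Sham mean was -0.71 (Pearson's r = -0.47). Within clusters rho was -0.72 in HoxA (57 windows), -0.78 in HoxB (46), -0.74 in HoxC (43) and -0.91 in HoxD (42). These are descriptions across windows of the same libraries, which are not independent replicates. Each window holds nearly the same number of CpGs, so a CpG-dense window is a short one.

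**Figure D2:**
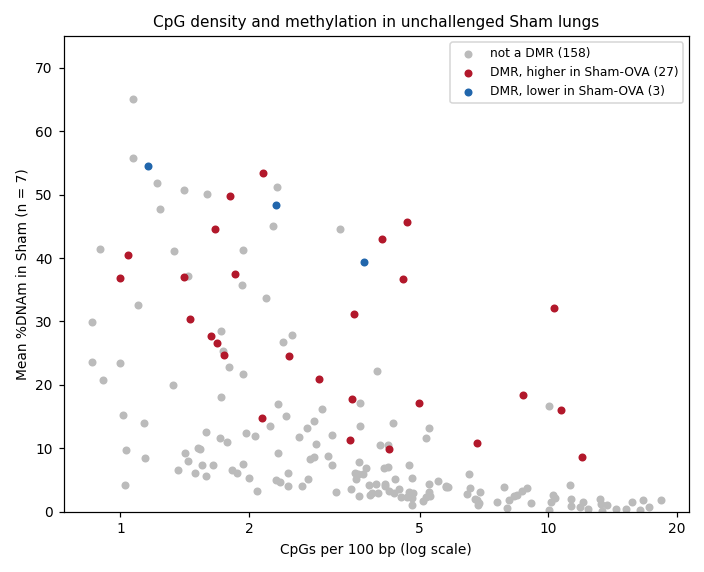
CpGs per 100 bp (horizontal axis, log scale) and mean %DNAm in Sham (vertical axis, n = 7) of the 188 Hox windows, coloured by whether the window was called differentially methylated after OVA challenge in Sham offspring. The 27 windows called higher had a median of 2.92 CpGs per 100 bp and a median Sham level of 27.7%, against 3.61 and 5.90% for the 157 windows called in neither kind of offspring.

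The first comparison asked how the Hox clusters differed after OVA challenge. Most of the windows that passed the test were more methylated after challenge, and most of the larger rises lay in HoxA. A window was called a differentially methylated region (DMR) at an adjusted p under 0.05 (limma's moderated test, Benjamini-Hochberg adjustment over the 259167 windows tested) if the group means were also 10 or more percentage points apart. The study set its own cutoff at an adjusted p under 1e-06 in a count test, so these calls are looser. In Sham offspring 27 Hox windows were higher and 3 lower DMRs, against 0.479% and 0.296% of all windows. In PM offspring 20 were higher and 3 lower, against 0.263% and 0.321% of all windows. As a share of the 188 Hox windows, higher DMRs made up 14.4% in Sham and 10.6% in PM offspring.

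Hox windows are seldom fully methylated, so the counts were also set beside windows of a like Sham level. Between 20% and 60% methylation in Sham, 18 of 47 Hox windows were higher DMRs in Sham offspring, against 3.67% of all windows in that range, and 12 of 47 in PM offspring, against 2.09%. Below 20%, the higher DMRs numbered 9 and 8 of 140, against 0.395% and 0.268% of all windows in that range.

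Smaller changes leaned the same way. At an adjusted p under 0.05 (limma) of any size, 102 Hox windows were higher and 12 lower in Sham-OVA, against 13.3% and 22.3% of all windows, and 74 did not pass. In PM-OVA 86 were higher and 16 lower, against 9.26% and 34.8% of all windows, and 86 did not pass. The median Hox difference was 1.69 points (Sham offspring) and 1.22 points (PM offspring), where the median of all windows was -0.414 and -1.03. Centring every library on a common median moved the share of higher calls among all windows that passed from 37.3% to 50.7% in Sham and from 21.02% to 50.3% in PM offspring, and gave 110 higher and 11 lower Hox windows in Sham and 105 and 11 in PM offspring.

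Many groups did not overlap at all. Every OVA-challenged library lay above every unchallenged one in 36 Hox windows in Sham offspring (3.15% of all windows) and 26 in PM offspring (1.65%), and below it in 4 (5.43% of all windows) and 6 (10.3%). The mean over the 188 windows was 13.6%, 14.2% and 15.6% (lowest, median and highest library) in Sham and 17.1%, 18.3% and 19.1% in Sham-OVA. It was 13.6%, 14.5% and 15.9% in PM and 17.2%, 17.7% and 18.7% in PM-OVA. Challenged and unchallenged libraries did not overlap on this mean in either kind of offspring.

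HoxA had 19 of the 27 higher DMRs of Sham offspring and 18 of the 20 of PM offspring. HoxB had 6 and 2, HoxD 2 and 0, and HoxC none in either. Each higher DMR of HoxA except the Hoxa2 start window carried the name Gm28308. The 3 lower DMRs were the same HoxA windows in both. Closest to the 10-point limit were a Hoxb3 window just inside it (10.8 points) and a Hoxa2 window just outside (9.25 points) in Sham offspring, and a Gm28308 window inside (10.95 points) and a Hoxb3 window outside (9.97 points) in PM offspring.

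**Figure D3:**
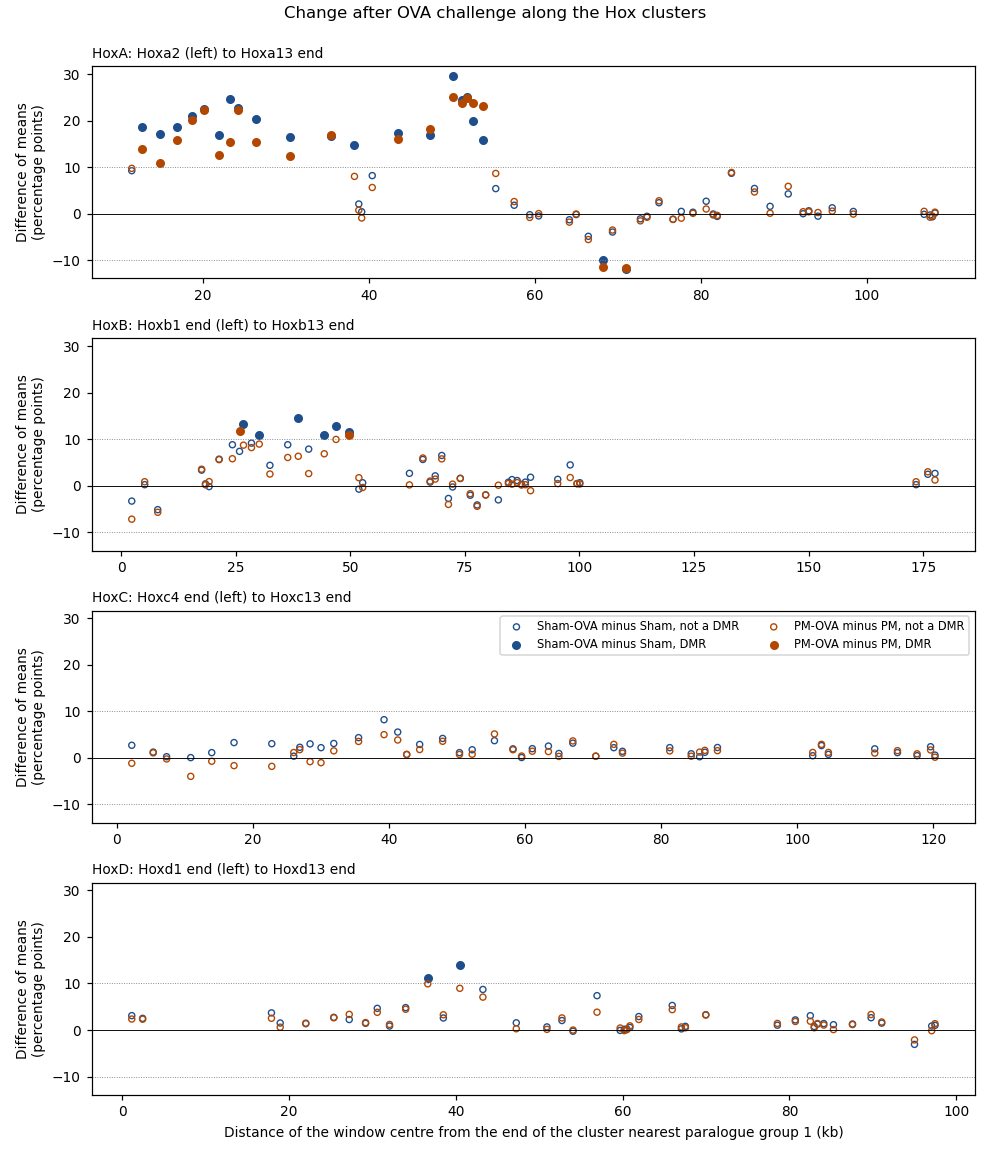
Difference of group means after OVA challenge in the windows reported here (vertical axis, percentage points) along each cluster (horizontal axis, kb from the end nearest paralogue group 1) in Sham and PM offspring, with filled points for DMRs. Rising DMRs form a run in HoxA, a smaller one around Hoxb3 in HoxB and a pair of windows in HoxD, and falling DMRs at Hoxa7 and Hoxa9 lie past the HoxA run.

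In HoxA the rise formed a domain over Hoxa2, Hoxa3, Hoxa4, Hoxa5 and part of Hoxa6. From the first to the last higher DMR of Sham offspring (chr6:52164635-52206942, 42308 bp) lay 22 windows, of which 19 were DMRs in Sham and 18 in PM offspring. Its limits were drawn from the calls, so its mean is a description with no test. That mean was 20.7%, 22.7% and 25.95% in Sham (lowest, median and highest library) and 33.2%, 40.7% and 46.2% in Sham-OVA. It was 21.3%, 22.7% and 29.1% in PM and 36.1%, 39.6% and 42.4% in PM-OVA. Neither pair of groups overlapped, and the median difference of the windows was 17.99 points (Sham offspring) and 15.9 points (PM offspring). Over the other 35 HoxA windows the library means overlapped, at 11.4% to 12.98% in Sham and 11.5% to 12.5% in Sham-OVA.

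The largest rise of all Hox windows lay at Hoxa5, a gene needed for normal lung and airway development. The window at chr6:52201945-52203659 has 887 exonic bp, of which 248 bp are coding and 639 bp untranslated. It had 16.6%, 19.9% and 23.9% (lowest, median and highest) in Sham and 40.6%, 52.5% and 59.2% in Sham-OVA, which did not overlap. In PM it had 15.6%, 23.5% and 35.8% and in PM-OVA 34.6%, 49.3% and 59.1%, where a single PM library reached above the lowest PM-OVA library. The mean rose from 20.9% ± 2.63 (SD, n = 7) to 50.5% ± 6.95 (SD, n = 7), by 29.6 points, or 1.91 ± 0.20 (SE) on the log2 methylated-to-unmethylated scale (limma adjusted p = 8.36e-08). In PM offspring it rose from 22.9% ± 6.74 (SD, n = 7) to 47.9% ± 7.69 (SD, n = 8), by 25.04 points or 1.63 ± 0.20 (limma adjusted p = 3.17e-07).

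The first exon and start of Hoxa5 also rose. The coding window at chr6:52203675-52204140, with 10.7 CpGs per 100 bp, went from 16.05% ± 4.00 to 40.5% ± 7.24 in Sham and from 15.9% ± 4.01 to 39.7% ± 5.27 in PM offspring. The window of the gene start (chr6:52204143-52204716) had 14.2%, 17.8% and 23.4% in Sham, 35.03%, 40.7% and 56.1% in Sham-OVA, 11.6%, 15.3% and 20.05% in PM and 35.7%, 39.5% and 47.7% in PM-OVA. Every challenged library was above every unchallenged one. Its difference was 25.1 points in Sham offspring (limma adjusted p = 1.71e-08) and 24.8 points in PM offspring (limma adjusted p = 3.05e-09). Just upstream, the window at chr6:52204721-52205812, which holds no exonic base, rose from 36.7% ± 4.79 to 56.6% ± 7.79 and from 34.9% ± 3.11 to 58.6% ± 4.86. The upstream sequence printed for Hoxa5 lies across the start window and this one.

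The domain also held Hoxa3, which acts in the development of pharyngeal organs. Windows with Hoxa3 coding exons rose by 18.6 points at chr6:52168854-52170277 and 21.04 points at chr6:52170286-52172309 in Sham offspring, and by 15.7 and 20.2 points in PM offspring. The intron window at chr6:52175751-52176167, the most CpG-dense DMR of the domain (11.99 CpGs per 100 bp), had 1.22%, 8.43% and 19.1% in Sham, 11.7%, 32.2% and 47.1% in Sham-OVA, 0%, 2.91% and 14.4% in PM and 17.3%, 19.7% and 34.9% in PM-OVA. It overlapped between the Sham groups and not between the PM groups. Its difference was 24.7 points (limma adjusted p = 0.000807) and 15.4 points (limma adjusted p = 0.000406). The neighbouring window at chr6:52176188-52177628 was less spread, at 17.8% ± 1.90 in Sham and 40.6% ± 6.22 in Sham-OVA, and rose by 22.7 and 22.3 points.

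At the anterior end of the domain lay Hoxa2, which patterns the hindbrain and the second pharyngeal arch. Its start window (chr6:52164635-52166086) had 8.31%, 11.3% and 18.2% in Sham, 24.2%, 27.5% and 35.5% in Sham-OVA, 8.01%, 15.9% and 19.2% in PM and 24.1%, 26.8% and 32.4% in PM-OVA, without overlap in either kind of offspring. It rose by 18.7 points (limma adjusted p = 1.56e-07) and 13.9 points (limma adjusted p = 4.56e-06). The coding window next to it (chr6:52163570-52164626) rose by 9.25 and 9.75 points, just under the limit.

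The remaining 10 DMRs of the domain in Sham offspring rose by 14.8 to 22.5 points. Among them, the Hoxa4 coding window at chr6:52190560-52191294 was a DMR in Sham (14.8 points) and had 8.02 points in PM offspring (limma adjusted p = 0.00506), below the limit. The window between Hoxa2 and Hoxa3 at chr6:52166130-52168829 rose by 17.1 and 10.95 points, and in PM offspring it was below the 10-point limit without PM replicate 3 or without PM-OVA replicate 8 (down to 9.74 points). On the Hoxa6 side, the window at chr6:52205873-52206942 rose by 15.9 points (Sham offspring) and 23.1 points (PM offspring), and the interaction had an adjusted p of 0.695 (limma).

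Inside the domain the start of Hoxa4, a homeobox gene expressed in the embryonic lung, was close to 0 in nearly every library. The coding window at chr6:52191295-52191599, with 16.4 CpGs per 100 bp, was at 0.259% ± 0.221 in Sham, 2.35% ± 2.16 in Sham-OVA, 1.05% ± 0.990 in PM and 1.81% ± 2.08 in PM-OVA. The window of the gene start (chr6:52191602-52191997) had 0%, 0% and 0.752% in Sham, 0%, 0.427% and 1.61% in Sham-OVA, 0%, 0.130% and 9.36% in PM and 0%, 0.487% and 1.06% in PM-OVA, and its highest PM value came from PM replicate 3 alone. All groups overlapped. The difference was 0.428 points in Sham offspring (limma adjusted p = 0.351) and -0.916 in PM offspring (limma adjusted p = 0.843). The window on its other side (chr6:52191998-52194141) rose by 8.19 and 5.64 points, below the limit.

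Beyond the last DMR the change became smaller within a few windows, which were chosen after their values were seen. The Hoxa6 start window (chr6:52207032-52208864) rose by 5.40 and 8.66 points (limma adjusted p = 0.00193 and 7.46e-06). The next window at chr6:52208867-52211471 had 1.83 and 2.62 points, neither past the test. The window of the annotated Hoxa3 start (chr6:52212565-52213670) was at 2.31% ± 0.860 in Sham and 1.83% ± 1.40 in Sham-OVA (limma adjusted p = 0.315).

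Past the Hoxa6 end of the domain methylation fell in windows of Hoxa7 and Hoxa9. Hoxa9, a regulator of blood progenitors, had the largest fall of all Hox windows at chr6:52222535-52224700, which covers its coding and untranslated exons. Its levels were 44.2%, 48.3% and 51.7% in Sham, 30.8%, 36.1% and 42.96% in Sham-OVA, 40.9%, 47.6% and 55.04% in PM and 32.4%, 36.7% and 39.1% in PM-OVA. Within each kind of offspring the challenged libraries lay below the unchallenged ones without overlap. The mean fell by 11.8 points in Sham offspring (limma adjusted p = 2.68e-05) and fell by 11.7 points in PM offspring (limma adjusted p = 1.43e-05). Hoxa7, a gene of the thoracic axis, went at chr6:52220179-52221525 from 39.4% ± 4.08 to 29.4% ± 4.47 and from 39.3% ± 4.56 to 27.8% ± 3.86, with overlap (limma adjusted p = 0.000586 and 5.96e-05).

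The fall at Hoxa7 lay close to the 10-point limit. In Sham offspring the Hoxa7 window was no longer a DMR without Sham replicate 1, 4 or 5 or without Sham-OVA replicate 3, 5 or 6 (as little as -8.94 points). Its adjusted p in Sham offspring was at most 0.00219 (limma) in any fit that left out a library. The Hoxa7 start window, chosen after its values were seen, passed the test with smaller falls (fell by 3.94 and fell by 3.51 points).

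No posterior HoxA window from Hoxa10 to Hoxa13 was a DMR. A Hoxa10 window at chr6:52234902-52237788, also chosen after its values were seen, rose from 25.3% ± 2.12 to 33.96% ± 2.39 and from 25.8% ± 1.47 to 34.6% ± 1.70 without overlap (8.69 and 8.88 points, limma adjusted p = 3.84e-07 and 1.29e-07). Hoxa10 acts in the posterior axis and the uterus. The start window of Hoxa13, a gene of limb and genital development, was at 0.429% ± 0.275 in Sham with a difference of 0.147 points (limma adjusted p = 0.758).

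**Figure D4:**
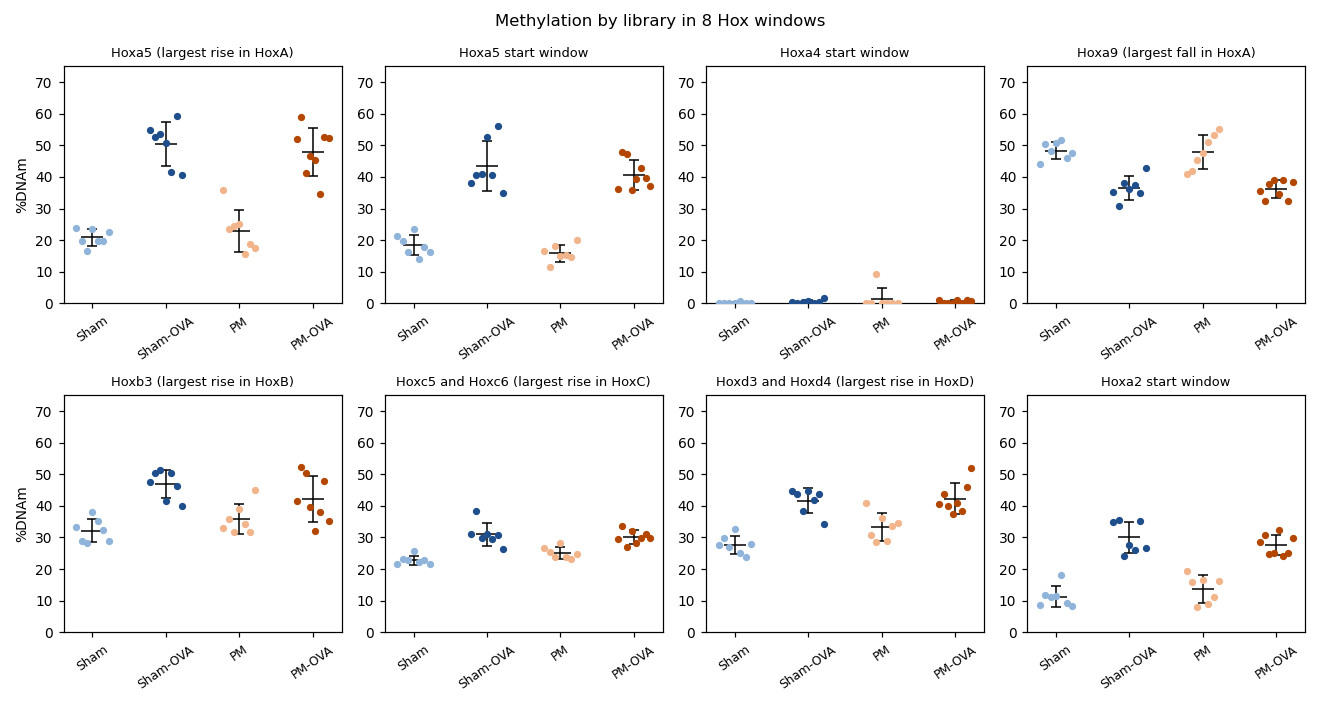
%DNAm of each library (points, vertical axis) in 8 Hox windows by group (7 Sham, 7 Sham-OVA, 7 PM and 8 PM-OVA), with the mean and SD as black bars. Within each kind of offspring the challenged libraries lie above the unchallenged ones at the Hoxa5 start window and below them in the Hoxa9 window, while the Hoxa4 start window stays near 0 except in PM replicate 3 (9.36%).

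HoxB rose around Hoxb3 and the end of Hoxb4, genes that act in blood progenitors and in the hindbrain. From the first to the last higher DMR of Sham offspring (chr11:96320381-96345587, 25207 bp) lay 10 windows, of which 6 were DMRs in Sham and 1 in PM offspring. Their mean was 38.7%, 41.7% and 43.9% in Sham (lowest, median and highest library), 48.6%, 51.4% and 56.9% in Sham-OVA, 39.9%, 44.1% and 46.6% in PM and 49.3%, 50.6% and 53.2% in PM-OVA. Challenged and unchallenged libraries did not overlap on this mean, which is a description as in HoxA. The window called in both, at chr11:96320381-96323394 with the annotated Hoxb3 start, rose by 11.5 points (limma adjusted p = 5.94e-05) and 10.99 points (limma adjusted p = 4.97e-05).

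The largest rise in HoxB in Sham offspring was in the CpG-dense Hoxb3 intron window at chr11:96332781-96333266, whose sequence is printed with the others. It had 28.3%, 32.3% and 38.2% in Sham, 40.04%, 47.5% and 51.4% in Sham-OVA, 31.6%, 34.3% and 45.1% in PM and 32.1%, 40.6% and 52.3% in PM-OVA. The Sham groups did not overlap and the PM groups did. The difference was 14.7 points in Sham offspring (limma adjusted p = 9.7e-05) and 6.35 points in PM offspring (limma adjusted p = 0.0480), with an adjusted p of 0.653 (limma) for the interaction.

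The other Hoxb3 DMRs of Sham offspring rose by 12.7 points at chr11:96323402-96326173, 10.8 at chr11:96326194-96328514, 10.8 at chr11:96340951-96342129 and 13.4 at chr11:96344365-96345587. In PM offspring they rose by 9.97, 6.89, 8.97 and 8.74 points, each past the test and below the limit. Without Sham replicate 6 the second of them had 9.86 points. A coding window of Hoxb3 (chr11:96345589-96346087) was a DMR in PM offspring alone, with 11.8 points there and 7.41 in Sham offspring (limma adjusted p = 0.00100 and 0.0264).

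Elsewhere in HoxB the differences had both signs. Over all 46 HoxB windows, 22 were higher and 3 lower at an adjusted p under 0.05 (limma) in Sham offspring. In PM offspring 17 were higher and 5 lower. Over all windows tested these shares were 13.3% and 22.3% in Sham and 9.26% and 34.8% in PM offspring. At Hoxb1, which gives the fourth rhombomere of the hindbrain its identity, the window of the start at chr11:96361348-96366024 fell by 5.12 and fell by 5.69 points. At chr11:96367020-96371683 the Hoxb1 difference was -3.28 points in Sham offspring (limma adjusted p = 0.0969), while the mean fell by 7.16 points in PM offspring (limma adjusted p = 0.000408). Around Hoxb6 a window at chr11:96293201-96294799, chosen after its values were seen, fell by 4.11 and fell by 4.40 points. At Hoxb5, a gene of airway branching, the start window (chr11:96302574-96303725) was at 13.98% ± 2.09 in Sham and had a difference of 2.15 points in Sham offspring (limma adjusted p = 0.0496) and 1.45 in PM offspring (limma adjusted p = 0.155).

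In HoxD the change centred on Hoxd3 and Hoxd4, which pattern the cervical spine. The window at chr2:74723781-74726791 had 23.7%, 27.6% and 32.6% in Sham, 34.3%, 43.7% and 44.7% in Sham-OVA, 28.7%, 33.6% and 41.01% in PM and 37.3%, 40.7% and 52.00% in PM-OVA. The Sham groups did not overlap and the PM groups did. It was a DMR in Sham offspring (13.99 points, limma adjusted p = 5.18e-06) and rose by 8.96 points in PM offspring (limma adjusted p = 0.000749). A further window at chr2:74727724-74730533 was a DMR in Sham offspring, from 24.7% ± 4.20 to 35.95% ± 5.09, and rose by 9.92 points in PM offspring. Between them, a window of Hoxd4 with coding sequence (chr2:74726792-74727723) went from 4.40% ± 0.887 to 6.99% ± 1.65.

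The first of these windows also holds Mir10b. A window named Mir10a in HoxB (chr11:96316928-96318715), which the name rule leaves out, rose from 16.98% to 22.6% and from 18.6% to 22.9% (limma adjusted p = 0.000168 and 0.00194). The mature miRNAs, from RefSeq, are shown because these paralogues of the Hox clusters share a seed (bases 2 to 8, in capitals).
miR-10a-5p: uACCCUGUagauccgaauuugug
miR-10b-5p: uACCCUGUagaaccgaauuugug

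The other 39 HoxD windows held no DMR. Their mean per library was 8.12% to 9.38% in Sham and 9.86% to 11.2% in Sham-OVA, which did not overlap. At Hoxd13, a gene of digit development, the window at chr2:74668904-74672590 had the largest fall of the cluster (fell by 3.09 and fell by 2.12 points, limma adjusted p = 0.00515 and 0.0339). Of the 42 HoxD windows, 28 rose and 1 fell at an adjusted p under 0.05 (limma) in Sham offspring, against 13.3% and 22.3% of all windows, and 25 and 1 in PM offspring, against 9.26% and 34.8%.

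HoxC, which lacks the most anterior paralogue groups, had no DMR. The mean difference was above 0 in 43 of 43 windows in Sham offspring, of which 22 passed the test, and in 35 of 43 in PM offspring, of which 18 passed. Over all windows it was above 0 in 106102 of 259167 in Sham and 79865 of 259167 in PM offspring, and 13.3% and 9.26% passed as higher. The largest rise in Sham offspring was within transcripts of Hoxc5 and Hoxc6 at chr15:103000609-103003345, with 21.5%, 22.7% and 25.7% in Sham and 26.5%, 30.9% and 38.5% in Sham-OVA and no overlap. It rose by 8.21 points (limma adjusted p = 5.66e-06), and by 5.00 points in PM offspring (limma adjusted p = 0.00102). The largest rise in PM offspring was at Hoxc9, a thoracic gene (chr15:102984026-102987479), from 9.38% ± 1.43 to 14.5% ± 1.57, where Sham offspring had 3.71 points. At Hoxc4 the window at chr15:103027874-103032885 had 0.0660 points in Sham offspring (limma adjusted p = 0.922) and fell by 3.96 points in PM offspring (limma adjusted p = 0.0422), with an adjusted p of 0.701 (limma) for the interaction.

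Annotated gene starts were mostly low in methylation. Of the 39 Hox genes in the annotation, 35 had their start in a member window, in 34 distinct windows. In Sham 29 of these windows were below 20% and 21 below 10%. The 5 at or above 20% held the annotated starts of Hoxb1, Hoxb2, Hoxb3, Hoxb6 and Hoxc4. These 5 windows had 0.858 (Hoxc4) to 2.52 (Hoxb6) CpGs per 100 bp, against a median of 3.54 over the Hox windows. The start windows of Hoxa2, Hoxa5 and Hoxb3 were DMRs, all higher and in both kinds of offspring, and no other start window was. The Hoxb3 start (chr11:96323326) lies near the end of its window, which is named Hoxb4 and mostly precedes that start. At an adjusted p under 0.05 (limma) 17 start windows were higher and 3 lower in Sham offspring, and 13 and 3 in PM offspring, of 34. Over all windows the shares were 13.3% and 22.3% in Sham and 9.26% and 34.8% in PM offspring, and over all windows below 20% in Sham they were 20.4% and 4.42%, and 17.6% and 5.63%.

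The second comparison asked whether maternal PM exposure altered the Hox windows or their response to OVA challenge. By limma's test 0 Hox windows had an adjusted p under 0.05 for PM against Sham without OVA (smallest 0.812), with OVA (smallest 0.816) or for the interaction, that is the change after OVA in PM less that in Sham offspring (smallest 0.554). At an unadjusted p under 0.05 there were 13 of 188 Hox windows without OVA (5.79% of all windows), 7 with OVA (5.96%) and 10 for the interaction (7.4%). These counts depended on single libraries. Without OVA there were 7 without Sham replicate 1 and 8 without PM replicate 1. With OVA there were 11 without Sham-OVA replicate 1 or 3, 12 without PM-OVA replicate 1 or 8 and 14 without Sham-OVA replicate 7. For the interaction there were 19 without Sham replicate 4 or PM replicate 3, 16 without Sham-OVA replicate 7, and 6 without Sham-OVA replicate 4 or 6, PM replicate 4 or PM-OVA replicate 5. In each of these fits 0 Hox windows had an adjusted p under 0.05 (limma).

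The windows with the smallest p show how large these differences were. Without OVA it was the Hoxd3 window at chr2:74723781-74726791, at 27.7% ± 2.91 in Sham and 33.4% ± 4.42 in PM (5.68 points, 0.38 ± 0.13 (SE) on the log2 scale, limma adjusted p = 0.812). With OVA it was a window of Hoxd1, the most anterior HoxD gene, at chr2:74763512-74765745, with 36.8% ± 1.61 in Sham-OVA and 34.3% ± 1.01 in PM-OVA (-2.48 points, limma adjusted p = 0.816). For the interaction it was a coding window of Hoxb6 at chr11:96299142-96299563, where the group means were 0.722%, 0.477%, 0.483% and 0.845% in Sham, Sham-OVA, PM and PM-OVA (limma adjusted p = 0.554). In points, the largest difference with OVA was at the Hoxa3 intron window, at 33.3% ± 12.6 in Sham-OVA and 21.1% ± 5.77 in PM-OVA (limma adjusted p = 0.874).

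The changes after OVA challenge in Sham and in PM offspring come from separate libraries. Across the 188 Hox windows their Pearson's r was 0.96 (Spearman's rho = 0.88), and across all windows tested it was 0.88 (0.84), as a description across windows. Of the higher DMRs, 19 were called in both, which is 70.4% of the 27 of Sham and 95% of the 20 of PM offspring. The 8 called in Sham offspring alone and the 1 called in PM offspring alone had interaction adjusted p-values of 0.653 or more (limma).

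**Figure D5:**
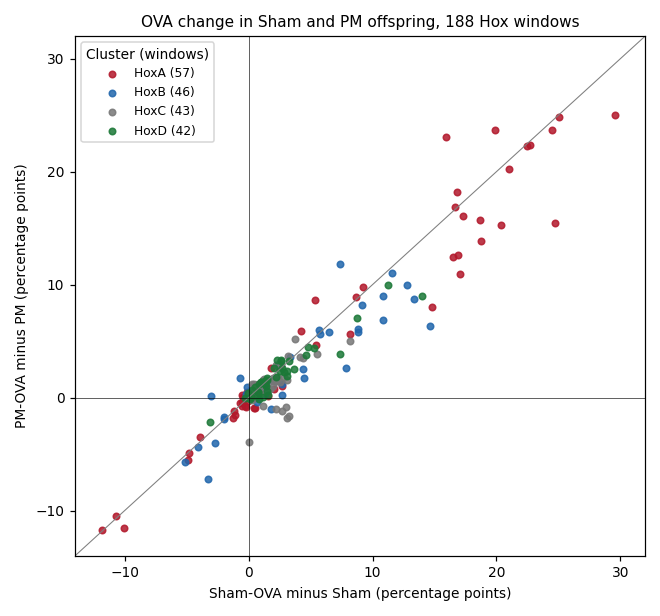
Difference of means after OVA challenge in Sham offspring (horizontal axis, percentage points) and in PM offspring (vertical axis) for the 188 Hox windows, coloured by cluster, with the line of equal change in grey. HoxA windows reach 29.6 points on the horizontal and 25.04 on the vertical axis, and no HoxC window exceeds 8.21 points on either.

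Genes of the wider Hox system were read from the same fit, where, as given above, higher and lower DMRs made up 0.479% and 0.296% of all windows in Sham offspring and 0.263% and 0.321% in PM offspring. Of 15 windows named for Hox cluster RNAs, 1 was a DMR in both kinds of offspring. It belonged to Hotairm1, a HoxA cluster RNA known from myeloid cells, and lay just before the anterior end of the HoxA domain (chr6:52160850-52163503). It rose from 19.4% ± 2.00 to 37.4% ± 4.09 and from 18.5% ± 1.96 to 34.98% ± 3.02 (limma adjusted p = 1.58e-09 and 1.04e-09). Among 165 windows of genes that flank the clusters, 2 were higher DMRs in Sham and 1 in PM offspring, all in Skap2, an adaptor of immune cells beside HoxA (13.5 and 11.4 points at chr6:52002504-52006454, 13.2 and 9.75 at chr6:51875351-51880537).

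Of 225 windows of upstream regulators, which include Polycomb members, Cdx genes and retinoic acid receptors, 5 were higher and 1 lower DMRs in Sham and 3 and 0 in PM offspring. Ranked in Sham offspring, the largest difference was at Rara, a receptor for retinoic acid, a classic inducer of Hox genes (16.8 and 15.3 points). Next came Cdx1, a caudal-type homeobox gene (12.6 and 13.1 points), and another Rara window, which fell by 12.3 and fell by 7.66 points. At an adjusted p under 0.05 (limma) 45 of these windows rose and 52 fell in Sham offspring, and 36 and 68 in PM offspring. These are 20% and 23.1% in Sham offspring, against 13.3% and 22.3% of all windows, and 16% and 30.2% in PM offspring, against 9.26% and 34.8%. Of 242 windows of the cofactors that bind DNA with Hox proteins, such as Meis proteins, 33 rose and 60 fell past the test in Sham and 24 and 98 in PM offspring. Their shares, 13.6% and 24.8% in Sham offspring and 9.92% and 40.5% in PM offspring, were near those of all windows or, for the falls in PM offspring, somewhat above.

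Windows of cell type marker genes moved with OVA challenge too. Of 185 windows of leucocyte genes, from 29 of 30 genes listed, 18 were lower and 1 higher DMRs in Sham offspring and 17 and 1 in PM offspring. Over all windows, lower and higher DMRs made up 0.296% and 0.479% in Sham and 0.321% and 0.263% in PM offspring. At an adjusted p under 0.05 (limma), whatever the size, 44 leucocyte windows were higher and 67 lower in Sham offspring (23.8% and 36.2%, against 13.3% and 22.3% of all windows). In PM offspring 35 were higher and 77 lower (18.9% and 41.6%, against 9.26% and 34.8%). Windows of these genes thus moved both ways, each in a larger share than over all windows. Examples of lower DMRs are Ptprc, which encodes CD45 (fell by 19.1 and fell by 16.5 points), and Lcp1, an actin-bundling protein of blood cells (fell by 18.1 and fell by 18.3 points). The mean over the leucocyte windows was 69.6% to 70.97% in Sham, 68.2% to 69.4% in Sham-OVA, 70.3% to 71.5% in PM and 68.3% to 69.1% in PM-OVA, lower in each challenged group without overlap. Of 267 windows of lung structural genes, 3 were higher and 1 lower DMRs in Sham and 1 and 1 in PM offspring, and at an adjusted p under 0.05 (limma) 85 were higher and 35 lower in Sham (31.8% and 13.1%, against 13.3% and 22.3% of all windows) and 63 and 51 in PM offspring (23.6% and 19.1%, against 9.26% and 34.8%). As in the Hox windows, more of the structural windows that passed the test rose than fell in both kinds of offspring, whereas over all windows more fell. Their mean was 60.9% to 62.6%, 61.8% to 63.7%, 61.2% to 63.2% and 61.7% to 63.1% in the same order. In whole lung, a changed mix of cells and a change within cells cannot be told apart, and the part of the cell mix in the Hox differences was not tested.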

How the data were processed

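The authors trimmed reads (Trim Galore), aligned them to GRCm38 and called methylation with DRAGEN. The deposited values are a percent methylation per window and library, which the authors made in SeqMonk by averaging bases over windows of a fixed number of CpGs that overlap a gene. No counts are in the table, so depth is unknown and precision rests on the 29 libraries.

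Windows with at least 3 values in each group were tested (259167 of 260686). After 1 point was added to the methylated and the unmethylated percent, their log2 ratio was fitted over the 4 groups with limma 3.58.1 in R 4.3.3 (two-sided, Benjamini-Hochberg adjustment over all windows tested). The count test of the study could not be used on percentages. The fit was tested on simulated data. Annotation came from GENCODE M21 and sequences from RefSeq, read with Python 3.11.15 and pysam 0.24.0. Named windows were each Hox DMR, the largest rise and fall, the lowest and highest Sham level of each cluster, the smallest p of the other contrasts, and the largest DMRs of each list. Some windows that these rules name are not reported here. Members, lists and rules were chosen with earlier results of these data known. Alternatives were another offset, the percent scale, centred libraries, complete windows, only the groups compared, a replicate block, other thresholds, and leaving out libraries. The labels name the tissue as lung (RML) and the methods as right lower lobe.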

Additional observations from a re-analysis of the deposited data

Results flagged for a closer look

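A library was picked out where its gap to the nearest of the others was large for the range of its group (Dixon's criterion) in a named Hox window or in the mean over Hox windows. This met 11 of 184 groups, and chance alone gives about 1 in 20. In the HoxA domain these were Sham replicate 5 at the Hoxa2 start window (18.2%, others 8.31% to 11.7%), PM-OVA replicate 8 at the Hoxa3 intron window (34.9%, others 17.3% to 21.4%), Sham-OVA replicate 7 at chr6:52198265-52201701 (37.1%, others 45.9% to 51.5%) and PM-OVA replicate 3 at chr6:52205873-52206942 (50.5%, others 62.4% to 71.6%). The Hoxa4 start window had Sham replicate 5 (0.752%, others at 0), Sham-OVA replicate 7 (1.61%, others 0% to 0.681%) and PM replicate 3 (9.36%, others 0% to 0.216%). The Hoxc5 and Hoxc6 window had Sham replicate 4 (25.7%, others 21.5% to 23.1%) and Sham-OVA replicate 2 (38.5%, others 26.5% to 31.01%). In HoxD they were Sham replicate 2 at the Hoxd13 window (16.7%, others 19.5% to 21.1%) and Sham-OVA replicate 5 at chr2:74715773-74721248 (37.9%, others 42.8% to 45.1%).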

How the results depend on the processing

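The counts of higher and lower Hox DMRs after OVA challenge, 27 and 3 in Sham and 20 and 3 in PM offspring, were the same with an offset of 5 points, on the percent scale, in windows with all values, with only the groups compared and without the 2 libraries whose names contain Rel. With centred libraries they were 27 and 2, and 23 and 2. A minimum difference of 5 points, a looser threshold by construction, gave 45 higher and 4 lower DMRs in Sham and 41 and 6 in PM offspring. Over all 259167 windows it gave 8690 and 6745 in Sham and 5339 and 9920 in PM offspring. An adjusted p under 1e-06, which the study used with its count test, is stricter by construction. It gave 10 higher and 0 lower in each kind of offspring, all in HoxA. Over all windows it gave 449 and 582 in Sham and 229 and 690 in PM offspring. Leaving out each library in turn gave 26 to 29 higher and 2 to 3 lower in Sham, and 20 to 23 and 2 to 3 in PM offspring. With the replicate block they were 27 and 3, and 20 and 3. The correlation of deviations had a median of 0.0141 over 42 same-numbered pairs and -0.00227 over 273 other pairs, with 1 and 0 over 0.1. Correlations this weak do not show whether the numbers pair the libraries. Pairing by the numbers in the library names, which differ in part, was not tested. For PM against Sham and the interaction 0 DMRs were found in each of these fits, with 6 to 19 Hox windows at an unadjusted p under 0.05 when libraries were left out. Weighting windows by length raised the mean Hox level in Sham from 14.3% to 20.4%, since long windows are more methylated. Of the 53 DMR calls in Hox windows, 33 were lost at an adjusted p under 1e-06, 2 with centred libraries and 1 without the Rel libraries. Depth is unknown, so levels near 0, as at Hoxa4, cannot be read against counting error.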
